A study of Homo sapiens with 6 samples.

Results

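The clustered histone genes were measured in cultures of the human ovarian cancer line SKOV3 after transfection with a miR21 precursor or a negative control precursor. They were taken as every probe set that the array's annotation assigns to 1 gene whose symbol is H1-1 to H1-5, or H2AC, H2BC, H3C or H4C with a number. This gave 49 probe sets of 44 genes among the 54613 probe sets of the table that are not controls. Of these, 5 read H1 genes, 11 H2A, 15 H2B, 8 H3 and 10 H4. A further 20 histone probe sets name several genes and fall outside this rule. The control group (3 arrays) received the negative control precursor and the miR21 group (3 arrays) received the miR21 precursor at 5 nM, each for 24 h. All cells were grown in RPMI1640 with serum and were seeded a day before transfection. Every difference compares the precursors with each other, without untransfected cells, in 1 cell line. Both groups carry replicate numbers 1 to 3, but the labels leave unsaid whether a number stands for a culture of its own. The spread behind each p-value is thus that of these arrays and may be technical.

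Histones are the proteins around which DNA is wound: H2A, H2B, H3 and H4 form the nucleosome core, and H1 binds the linker DNA between cores. Most of their genes lie in clusters, chiefly on chromosome 6, lack introns, and are transcribed in S phase, when new DNA has to be packaged. Their mRNAs typically end in a stem-loop bound by SLBP instead of a poly(A) tail, are processed with the help of the U7 particle, and are degraded when replication stops. Some of these genes also give polyadenylated transcripts, which are seen in cells that leave the cycle. The labels name the MessageAmp Premier kit, which copies RNA from an oligo(dT) primer. Signals from stem-loop mRNAs are therefore expected to be a partial view of these genes' transcripts, and the array does not tell the forms apart.

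The transfected agent and the start regions of 4 member genes are shown first, with all sequences from RefSeq and coordinates on its build GRCh38.p14. The mature strand that RefSeq lists for miR-21, with its seed (bases 2 to 8) in capitals, lies at chr17:59841273-59841294 on the plus strand.
hsa-miR-21-5p: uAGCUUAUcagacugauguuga
A promoter window (250 bases before to 50 bases after the start) was matched for 39 of the 44 genes. The windows shown are those of H2BC12 (chr6:27146809-27147108, minus strand) and H2BC5 (chr6:26157871-26158170, plus strand), the H2B genes described most fully below. Also shown is that of H4C8 (chr6:26285485-26285784, minus strand), which had the most negative mean difference among the tested members. The last is that of H2AC25 (chr1:228457824-228458123, minus strand), whose tested probe set was higher in every replicate number. Capitals mark matches, on either strand, to the TATA box TATAAA, the CCAAT box CCAAT and the octamer ATTTGCAT, an element known from H2B promoters.
H2BC12: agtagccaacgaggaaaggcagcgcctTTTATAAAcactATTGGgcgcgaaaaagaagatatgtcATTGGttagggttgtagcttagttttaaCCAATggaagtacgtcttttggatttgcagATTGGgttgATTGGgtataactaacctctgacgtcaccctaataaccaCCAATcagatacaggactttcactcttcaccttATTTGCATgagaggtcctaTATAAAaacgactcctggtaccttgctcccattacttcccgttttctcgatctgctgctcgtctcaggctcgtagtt
H2BC5: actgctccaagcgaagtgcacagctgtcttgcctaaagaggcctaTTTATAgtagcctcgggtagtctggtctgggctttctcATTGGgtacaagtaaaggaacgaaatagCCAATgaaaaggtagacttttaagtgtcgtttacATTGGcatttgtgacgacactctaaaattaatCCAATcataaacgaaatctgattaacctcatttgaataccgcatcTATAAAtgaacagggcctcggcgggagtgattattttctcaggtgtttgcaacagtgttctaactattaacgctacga
H4C8: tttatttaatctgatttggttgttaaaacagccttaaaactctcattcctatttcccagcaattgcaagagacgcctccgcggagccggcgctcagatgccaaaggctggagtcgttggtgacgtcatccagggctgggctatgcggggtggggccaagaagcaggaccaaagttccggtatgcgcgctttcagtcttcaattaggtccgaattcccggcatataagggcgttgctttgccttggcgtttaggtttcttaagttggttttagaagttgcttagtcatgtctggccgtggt
H2AC25: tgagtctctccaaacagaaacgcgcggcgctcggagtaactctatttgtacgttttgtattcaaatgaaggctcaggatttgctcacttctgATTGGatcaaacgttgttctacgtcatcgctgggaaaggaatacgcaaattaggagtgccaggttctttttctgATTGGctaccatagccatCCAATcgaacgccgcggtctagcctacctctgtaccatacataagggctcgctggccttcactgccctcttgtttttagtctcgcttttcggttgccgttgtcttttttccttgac
H2BC12 had a TATAAA match 27 bases before the start and an octamer 46 bases before it. A pair of its TATAAA matches, on opposite strands, overlapped each other, and no match overlapped one of another motif. H2BC5 had TATAAA matches and CCAAT matches but no octamer, H2AC25 had CCAAT matches alone, and none of these letter strings was found in the H4C8 window. Over the 42 windows of these 39 genes, 69.0% held TATAAA against 11.5% of all 35116 windows in the table. CCAAT was in 88.1% against 34.6%, and ATTTGCAT in 40.5% against 1.77%. The octamer was found in 11 of 15 H2B windows and 6 of 8 H2A windows, and in 0 of the 5 H1, 7 H3 and 7 H4 windows. These windows are not all separate DNA. Those of H2AC6, H2AC14 and H2AC17 overlap those of H2BC4, H2BC14 and H2BC17, so the same octamer can count in both classes. H2BC12 and H2BC5 are each counted through a pair of nearly identical windows, and H3C6 through a pair of separate windows. CCAAT was in all H1, H2A, H2B and H3 windows but in 2 of 7 H4 windows. A match describes these letters and not binding.

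Several features of the whole series bear on these genes. The median signal of all probe sets was 117 to 125 on the arrays of replicate number 1 and 55.2 to 61.9 on the others, so dim probe sets read higher in number 1 in both groups. Of 10 epithelial and ovarian markers, 7 passed the signal filter given below, among them EPCAM, PAX8 and ERBB2, while WT1, MUC16 and CLDN4 did not, although the labels describe high grade serous cells. Their summed signal was 56802 to 110174 in control and 63311 to 93377 with miR21. Of the fibroblast markers 2 of 7 passed (summed signal 417 to 1102 in control and 364 to 1293 with miR21), of the endothelial markers 1 of 4 (91.7 to 729 and 76.0 to 567), and of the leukocyte markers 0 of the 4 in the table (76.0 to 250 and 25.1 to 166). No marker had a signal of 0.

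Most histone probe sets that could be tested read lower with miR21, mainly those of H2B genes and mainly in replicate numbers 1 and 2, but no member passed the test. The values are MAS5 signals on a linear scale, and differences are miR21 minus control on the log2 scale. A probe set was tested when its mean log2 signal over the 6 arrays reached the median of all probe sets (6.03, a signal of 65.5), which 15 of the 49 members (14 genes) did. Of those 15, 12 had a negative mean difference, against 54.1% of all 27307 tested probe sets. The median difference was -0.49 for the members and -0.04 for all tested probe sets, and over all 49 members it was -0.29 against -0.05 for all probe sets. With 1 probe set per gene the median of the tested members was -0.37, against -0.01 for all genes tested in that way. Within numbers 1, 2 and 3 the members' median was -0.63, -0.65 and 0.04, while that of all tested probe sets was -0.05, -0.04 and -0.0052. The count of members that were lower was 13, 12 and 7 of 15 in the 3 numbers, against 53.6%, 53.1% and 50.6% of all tested probe sets.

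Limma without a block called 0 of the 15 members and 0 of all 27307 probe sets (0.00%) at an adjusted p under 0.05. At an unadjusted p under 0.05 it held 0 members and 533 probe sets (1.95%). When the replicate number was added as a block, 0 members and 5 probe sets (0.0183%) were called by limma. At an unadjusted p under 0.05 that fit held 3 members, H2BC12, H2BC6 and H4C8, all lower, which is 20.0% of the members against 9.58% of all tested probe sets in that direction, and 0 members that were higher, against 8.15%. Lower in all 3 numbers were 7 of 15 members (46.7%, against 21.3% of all tested probe sets): H1-2, H2AC4, H2BC12, H2BC12L, H2BC6, H2BC9 and H4C8. H4C8 passed the filter only through its control arrays, as described below. Its place in these counts thus depends on its difference. Higher in all 3 was H2AC25 alone (6.67% against 18.0%). The groups did not overlap for 0 of the 15, against 3.47% of all tested probe sets with lower and 2.82% with higher values. Leaving out control replicate 1 moved the median of the 15 to -0.29 and leaving out control replicate 2 moved it to -0.19, both changes of over 1.5 times, while without control replicate 3 it was -0.70. In a bulk culture, fewer cells in S phase and less transcript per cell cannot be told apart.

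**Figure D1:**
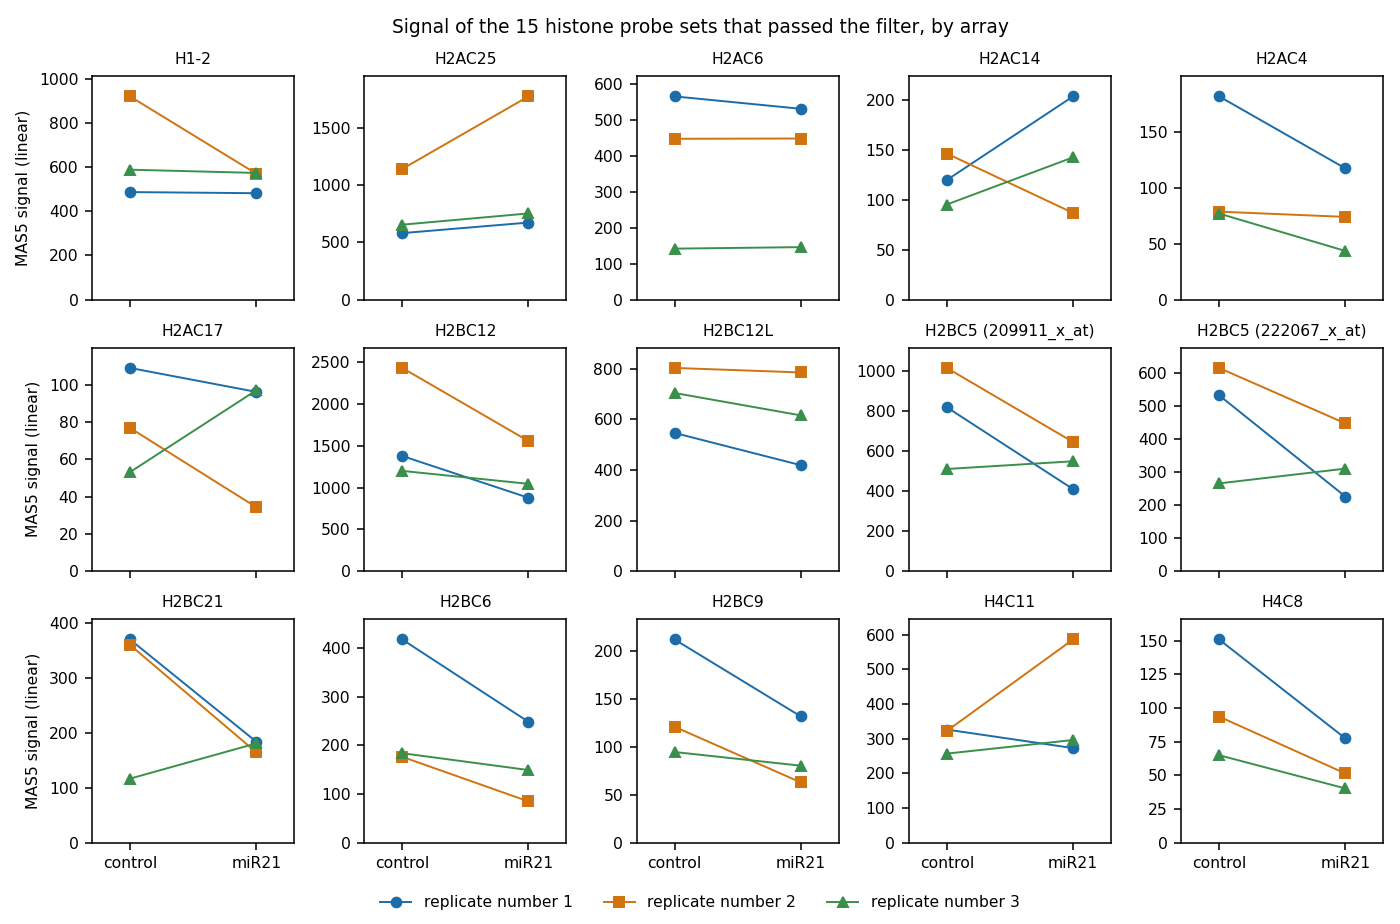
MAS5 signal (linear axis from 0, scaled per panel) of the 15 tested histone probe sets on each array, with control at left and miR21 at right in each panel and lines joining arrays of the same replicate number. H4C8 goes down in all 3 numbers, from 151, 93.6 and 64.9 to 77.4, 51.4 and 40.2, while H2BC21 goes down in numbers 1 and 2 and up in number 3.

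The H2B genes made up 7 of the 15 tested probe sets, and all 7 had a negative mean difference, with a median of -0.50. The sets of H2BC12L, H2BC5, H2BC6 and H2BC9 may also read other sequences, as described below. The 7 may therefore not be separate readings. H2BC12, a core histone H2B gene that also gives polyadenylated mRNA, had control signals of 1377, 2431 and 1199 and miR21 signals of 877, 1556 and 1044 in numbers 1, 2 and 3. Each number was lower with miR21, but the groups overlapped, since the miR21 array of number 2 read higher than the control arrays of numbers 1 and 3. The difference was -0.50 (SE 0.39), a signal 1.41-fold lower, with an adjusted p of 0.999994 in limma, and with the block the SE was 0.16 and the adjusted p 0.200. It was -0.19 without control replicate 2 and -0.32 without miR21 replicate 1. H2BC5 is read by a pair of probe sets that share a target and are not independent. The brighter one read 819, 1016 and 510 in control and 410, 645 and 549 with miR21, and the dimmer one, outside the rule for named genes, read 533, 616 and 266 in control and 226, 448 and 311 with miR21. Both were lower in numbers 1 and 2 and slightly higher in number 3, where the control array was the lowest of the control group. Their differences were -0.52 (SE 0.37) and -0.49 (SE 0.45), with adjusted p = 0.302 and 0.409 with the block in limma. With 1 array left out they ranged from -0.80 to -0.30 and from -0.86 to -0.25, lowest in size without control replicate 2 for the brighter and without miR21 replicate 1 for the dimmer probe set.

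H2BC21, an H2B gene of the chromosome 1 cluster with known polyadenylated transcripts, read 370, 360 and 116 in control and 184, 165 and 181 with miR21. Its miR21 values lay close together while the control array of number 3 was the lowest of all 6, so the differences were -1.01, -1.13 and 0.63 in numbers 1, 2 and 3. The mean was -0.50 (SE 0.52), and it was -0.22 without control replicate 1, -0.24 without control replicate 2 and -1.05 without control replicate 3. H2BC12L, an H2B gene on chromosome 21 that meets the rule by its symbol but lies outside the clusters, read 546, 804 and 704 in control and 419, 786 and 616 with miR21. It was lower in every number by little (-0.38, -0.03 and -0.19), and its mean of -0.20 (SE 0.35) was smaller than the spread between arrays and turned to 0.041 without miR21 replicate 1.

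The other tested H2B members, H2BC6 and H2BC9, are outside the rule for named genes and are given because few members remain. H2BC6 read 418, 176 and 184 in control and 248, 84.7 and 149 with miR21, and H2BC9 read 212, 121 and 94.6 in control and 132, 62.9 and 80.3 with miR21. Both were lower in all 3 numbers, least in number 3 (-0.30 and -0.24), and their mean differences were -0.70 (SE 0.55) and -0.62 (SE 0.53). With the block their SE was 0.27 and 0.32 and the adjusted p in limma 0.239 and 0.343. Without control replicate 1 the differences were -0.30 and -0.29, without miR21 replicate 2 they were -0.31 and -0.39, and without miR21 replicate 1 they were -1.08 and -0.92. Without both arrays of number 3, a fit added after the data were seen that rests on 2 pairs, limma with the block called 5 members, all H2B and all lower. They were H2BC12 (-0.65, adjusted p = 0.000465), both probe sets of H2BC5 (-0.83 and -0.85), H2BC21 (-1.07) and H2BC6 (-0.90). That is 33.3% of the members, beside 14.8% of all tested probe sets called lower and 26.5% called in either direction in the same fit. Without both arrays of number 1 or of number 2 the same fit called 0 members.

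**Figure D2:**
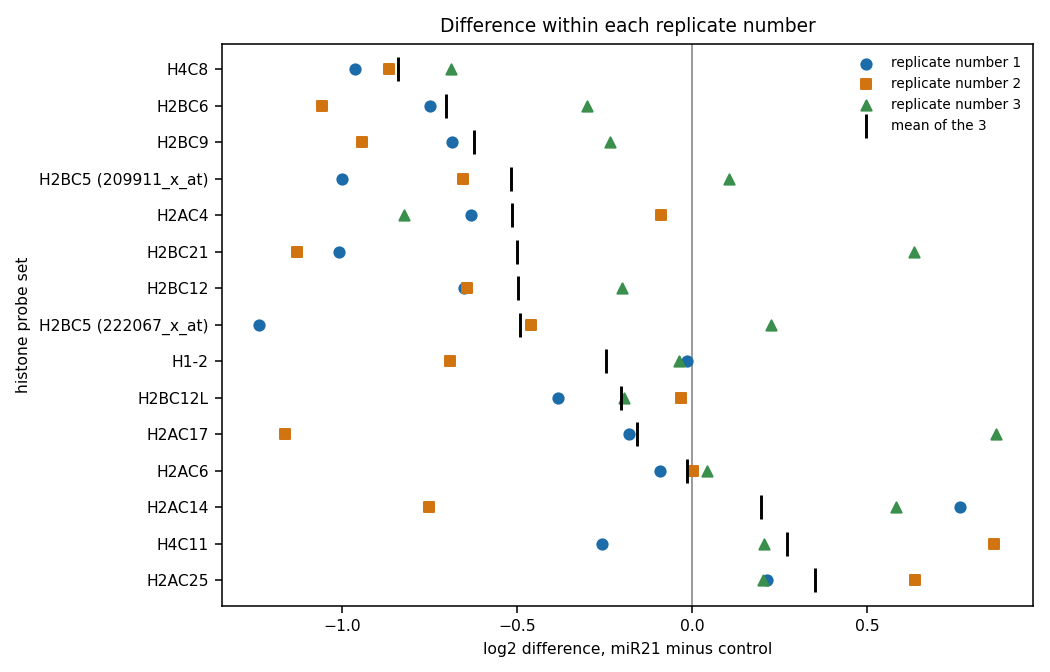
Log2 difference, miR21 minus control, within each replicate number (coloured symbols) and their mean (black bar) for the 15 tested histone probe sets, ordered by the mean. The means run from -0.84 for H4C8 to 0.35 for H2AC25, and the symbols of number 3 lie to the right of those of numbers 1 and 2 for every H2B probe set except H2BC12L.

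The H2A genes, 5 of the 15 tested, went both ways, with a median of -0.02. H2AC25, an H2A gene of chromosome 1, read 580, 1141 and 654 in control and 672, 1775 and 752 with miR21. It was higher in every number (0.21, 0.64 and 0.20), with the array pair of number 2 above the others in both groups, and its mean was 0.35 (SE 0.47; with the block SE 0.17 and adjusted p = 0.335 in limma). Without miR21 replicate 2 the difference was -0.089. A second H2AC25 probe set, below the filter, did not share this direction and differed by -0.24, 2.14 and -1.44 in numbers 1, 2 and 3. H2AC6, an H2A gene with known polyadenylated transcripts, read 566, 448 and 142 in control and 531, 448 and 146 with miR21, a difference of -0.02 (SE 0.68; with the block SE 0.20) that turned positive with quantile normalization (0.029) and median centring (0.084). Its values followed the replicate number, with number 3 far below the others in both groups, and differed little between the precursors.

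Among the other H2A members, H2AC4 was lower in each number, with signals of 182, 78.6 and 76.9 in control and 117, 73.9 and 43.5 with miR21, a difference of -0.51 (SE 0.61). That difference was -0.11 without control replicate 1, -0.15 without miR21 replicate 3 and -0.86 without miR21 replicate 1. H2AC14 read 120, 147 and 95.4 in control and 204, 86.9 and 143 with miR21, so it was higher in numbers 1 and 3 and lower in number 2 (mean 0.20, SE 0.48). H2AC17, which the naming rule leaves out, read 109, 76.9 and 53.1 in control and 96.2, 34.3 and 97.0 with miR21 (mean -0.16, SE 0.63). For both of these genes the direction depended on the replicate number, and leaving out 1 array turned the sign of the mean.

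H4C8 had the most negative mean difference of the tested members, and H4C11 was the other tested H4 gene. H4C8, which like its paralogs encodes histone H4, read 151, 93.6 and 64.9 in control and 77.4, 51.4 and 40.2 with miR21. The differences of -0.96, -0.87 and -0.69 were similar in the 3 numbers, but the control array of number 3 lay below the miR21 array of number 1, so the groups overlapped. The mean was -0.84 (SE 0.57), a signal 1.79-fold lower, and with the block the SE was 0.35 and the adjusted p 0.264 in limma. With 1 array left out it ranged from -1.13 to -0.52, the latter without control replicate 1. A second H4C8 probe set just below the filter read 173, 63.1 and 42.6 in control and 129, 39.0 and 27.9 with miR21, and was lower in all 3 numbers too (mean -0.58). H4C11 read 326, 322 and 257 in control and 273, 586 and 296 with miR21, with the miR21 array of number 2 far above the rest (mean 0.27, SE 0.40). Without that array the difference was -0.078.

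H1-2, a linker histone gene with known polyadenylated transcripts, was the sole H1 member tested. It read 487, 920 and 588 in control and 482, 570 and 573 with miR21. Its mean of -0.25 (SE 0.34) came almost wholly from number 2 (-0.69), where the control array was the highest of all 6, since numbers 1 and 3 differed by -0.02 and -0.04. Without control replicate 2 the difference was 0.013.

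The remaining 34 probe sets, among them all 8 of H3 genes, lay below the filter, and their signals are noisy on the log scale. Their median difference was -0.25 against -0.09 for all probe sets below the filter, and single values ran from -1.52 (H2BC17) to 1.15 (H3C3). In all 3 numbers 5 were lower (14.7%, against 15.0% of the probe sets below the filter) and 4 were higher (11.8% against 10.9%), shares close to the background. The groups did not overlap for H2AC8, H3C2 and H4C13, which were lower, and for H3C7, which was higher, and the background was 2.77% lower and 1.95% higher. H2AC8 read 52.8, 116 and 67.4 in control and 15.6, 34.3 and 35.6 with miR21, a difference of -1.48 (SE 0.76) with an unadjusted p of 0.0807 in limma without a filter. H3C2, the member nearest below the filter, read 72.1, 113 and 72.9 in control and 62.9, 48.9 and 38.1 with miR21 (difference -0.78). The nearest member inside it was H2AC17 (mean log2 signal 6.18, difference -0.16). The remaining H1 members went both ways, from -1.23 for H1-1 to 1.03 for H1-4, and so did those of H2A and H2B. Both pseudogenes, H2AC5P and H4C10P, differed by little on average (-0.22 and 0.10). Without a filter limma called 0 of the 49 members, with 0 at an unadjusted p under 0.05 against 1.52% of all probe sets.

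**Figure D3:**
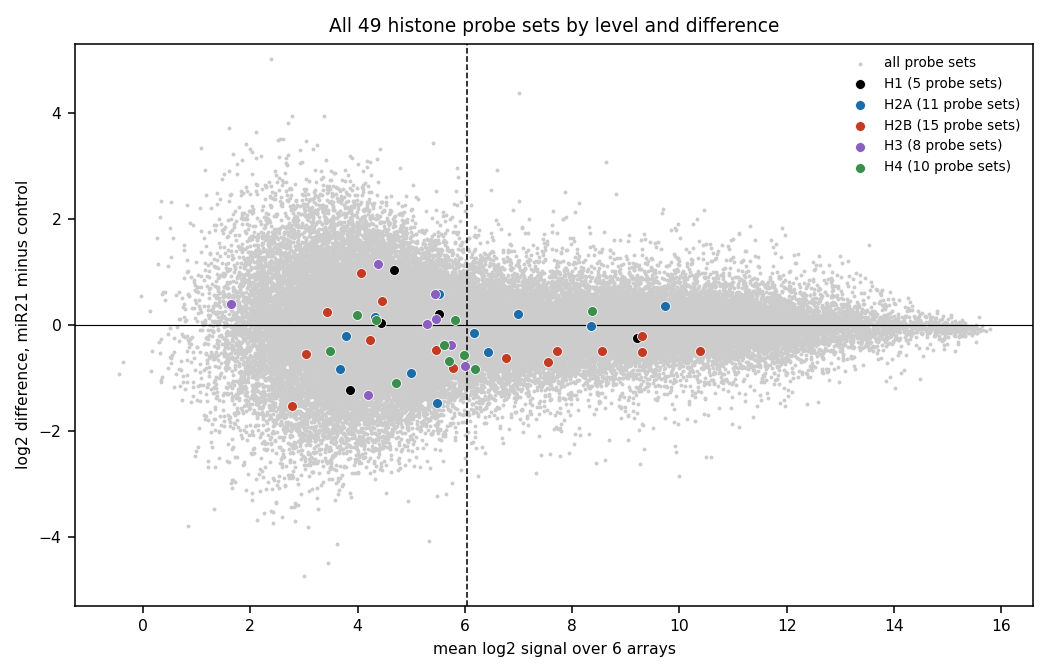
Mean log2 signal over the 6 arrays (x axis) against the log2 difference, miR21 minus control (y axis), for all probe sets (grey) and the 49 histone probe sets coloured by class, with a dashed line at the filter of 6.03. To the right of the line all 7 H2B probe sets lie below 0 and no H3 probe set appears, and to the left the members scatter from -1.52 to 1.15.

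Histone genes are near copies of each other, and a probe set can read several of them. Of the 49 probe sets, 9 carry the suffix _x_at, which the manufacturer gives to sets with probes that may hybridise to other sequences, and 7 of the 15 tested members are of this kind. Among these 7 are the H2B sets of H2BC12L, H2BC6 and H2BC9 and both of H2BC5. The median difference of these 7 was -0.49, and that of the other 8 was -0.37. The 20 probe sets annotated to several histone genes were not members. Of these, 11 passed the filter, with a median of -0.34. Of the 11, 4 were lower and 1 was higher in all 3 numbers, against 21.3% and 18.0% of all tested probe sets. The medians within numbers 1, 2 and 3 were -0.35, -0.32 and -0.05. A probe set annotated to H2AC18 and H2AC19 read 1657, 2293 and 878 in control and 585, 1627 and 1091 with miR21. It too was lower in numbers 1 and 2 and higher in number 3. Another tested set of these genes was lower in all 3 numbers (-0.28, -0.32 and -0.18). A further set, below the filter, differed by -0.89, -0.93 and 0.06. Tested sets of several H2B genes did not all share one pattern. A pair annotated to the same 5 H2B genes, H2BC6 among them, differed by -1.31, 0.44 and -0.14 and by -1.30, -0.00076 and -0.22. The set of H2BC8 and H2BC11 differed by -1.54, -1.48 and 0.0087. A probe set annotated to 14 H4 genes read 26410, 12725 and 30002 in control and 22580, 11401 and 28913 with miR21, a difference of -0.15. That set was lower in all 3 numbers (-0.23, -0.16 and -0.05), and so was another tested set of the same 14 H4 genes (-0.17, -0.39 and -0.30). A further tested set of these 14 genes was higher in all 3 numbers, by 0.42, 0.86 and 0.09.

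The members were also grouped by position and by transcript type, as descriptions with no test. On chromosome 6 the genes fall into a first and a second block, split at the widest gap between members. In the first block all 8 tested probe sets had negative mean differences (median -0.52), though that of H2AC6 was only -0.02. In the second, 2 of 4 did (median 0.02), and 54.1% of all tested probe sets did. The 8 include both sets of H2BC5 and those of H2BC6 and H2BC9, while H2BC12 is the only H2B member tested in the second block. Position and histone class are thus not separated. The 8 also include H4C8, which passed the filter only through its control arrays. With the members below the filter included, 19 of 28 were negative in the first block and 9 of 17 in the second. Several members share a promoter region with a gene read in the opposite direction from it. H2BC4 (below the filter) and H2AC6 have overlapping windows, and differed by -0.81 and -0.02. H2AC14 and H2BC14 differed by 0.20 and -0.48, and H2AC17 and H2BC17 by -0.16 and -1.52, where the H2B gene of each pair is below the filter. H2AC15 and H2BC15, both below the filter, went the other way. H2BC15 differed by 0.97 and the probe sets of H2AC15 by -0.91 and -0.83. The SE of these H2B differences without a filter was 0.77 (H2BC4), 0.78 (H2BC14), 1.81 (H2BC17) and 1.27 (H2BC15). Differences within pairs were not tested. Of 6 genes listed for known polyadenylated transcripts (H1-2, H2AC6, H2BC4, H2BC5, H2BC12 and H2BC21), 5 were tested through 6 probe sets. All 6 had negative means (median -0.49), though that of H2AC6 was only -0.02. Their medians were -0.83, -0.65 and 0.07 in numbers 1, 2 and 3. The other 9 tested members had a median of -0.20, with -0.38, -0.75 and -0.19 in the 3 numbers, and no test was made of this difference. The part of polyadenylation in these values was not tested.

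Genes that make, process and deposit histones were read from lists, each gene by its probe set of highest mean signal. None of their members passed limma with or without the block. The background for lower values in all 3 numbers was 21.3% and for higher values 18.0%. For groups without overlap it was 3.47% with lower and 2.82% with higher values. In the list of S phase and DNA replication genes, which are active at the same time as the clustered histone genes, 26 of 27 were tested and all 26 had negative means, 18 of them lower in all 3 numbers. The median was -0.94, and -1.44, -1.35 and -0.15 in numbers 1, 2 and 3. With the block, 23 of the 26 were lower at an unadjusted p under 0.05, against 9.58% of all tested probe sets. TYMS, the thymidylate synthase gene, read 9111, 9779 and 11759 in control and 2070, 2642 and 9199 with miR21 (difference -1.46, SE 0.54). GINS1, a subunit of the replicative helicase complex, read 4675, 4558 and 5114 in control and 1177, 1089 and 4508 with miR21 (difference -1.41, SE 0.54), without overlap of the groups. As with the H2B members, number 3 showed a smaller difference than numbers 1 and 2, and whether the lists move together was not tested.

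The list of histone gene transcription includes NPAT and CASP8AP2, which act at the histone locus body, and CDK2 with its cyclins, which phosphorylate NPAT. Of 8 tested, 4 were lower and 1 higher in all 3 numbers, with a median of -0.23. CCNE2, a cyclin partner of CDK2, read 881, 163 and 150 in control and 122, 30.0 and 117 with miR21 (difference -1.88, SE 0.85), without overlap of the groups. CDK2 read 4309, 1529 and 1605 in control and 1481, 558 and 1488 with miR21 (difference -1.03, SE 0.55), also without overlap. NPAT differed by -0.32 and CASP8AP2 by -0.14, both lower in numbers 1 and 2 and higher in number 3. HINFP, a transcription factor of H4 genes, was higher in each number (mean 0.53), without overlap of the groups. These 3 genes are outside the naming rule and were chosen after their values were seen.

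Genes of histone mRNA 3' end processing differed little, with a median of 0.04 over 13 genes, 1 lower and 4 higher in all 3 numbers. CPSF3, the endonuclease, differed by 0.41 (SE 0.43) and FIP1L1, a poly(A) factor, by 0.29 (SE 0.30). SLBP, the stem-loop binding protein gene, differed by -0.23, -0.80 and 0.25 in numbers 1, 2 and 3 (chosen after its values were seen; it also stands in the S phase list). The 16 genes of histone mRNA decay had a median of -0.08, with 6 lower and 3 higher in all 3 numbers. PNRC2, a decapping cofactor, read 5320, 6469 and 7786 in control and 2744, 3531 and 4573 with miR21, without overlap, a difference of -0.87 (SE 0.31; with the block SE 0.14 and adjusted p = 0.0842 in limma). Its difference was alike in the 3 numbers, unlike that of the H2B members. LSM3, an Lsm ring subunit, differed by -0.72 (SE 0.53).

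Of 21 tested histone chaperone and acetyltransferase genes, 10 were lower and 2 higher in all 3 numbers, with a median of -0.22. ASF1B, a chaperone of H3 and H4 in proliferating cells, read 2591, 2871 and 2686 in control and 983, 683 and 2450 with miR21 (difference -1.20, SE 0.47), without overlap and least in number 3. IPO4, an importin that carries H3 and H4 into the nucleus, differed by 0.56 (SE 0.34). The 9 tested genes listed as replication-independent histone variants, whose mRNAs are typically polyadenylated, had a median of -0.21, with -0.26, -0.26 and -0.21 in numbers 1, 2 and 3. CENPA, the centromeric H3 variant gene, read 2422, 3711 and 5480 in control and 2006, 2500 and 3155 with miR21 (difference -0.55, SE 0.37), and H2AZ1 differed by -0.31 (SE 0.25). Of these 9 genes, 4 were lower and 0 higher in all 3 numbers.

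**Figure D4:**
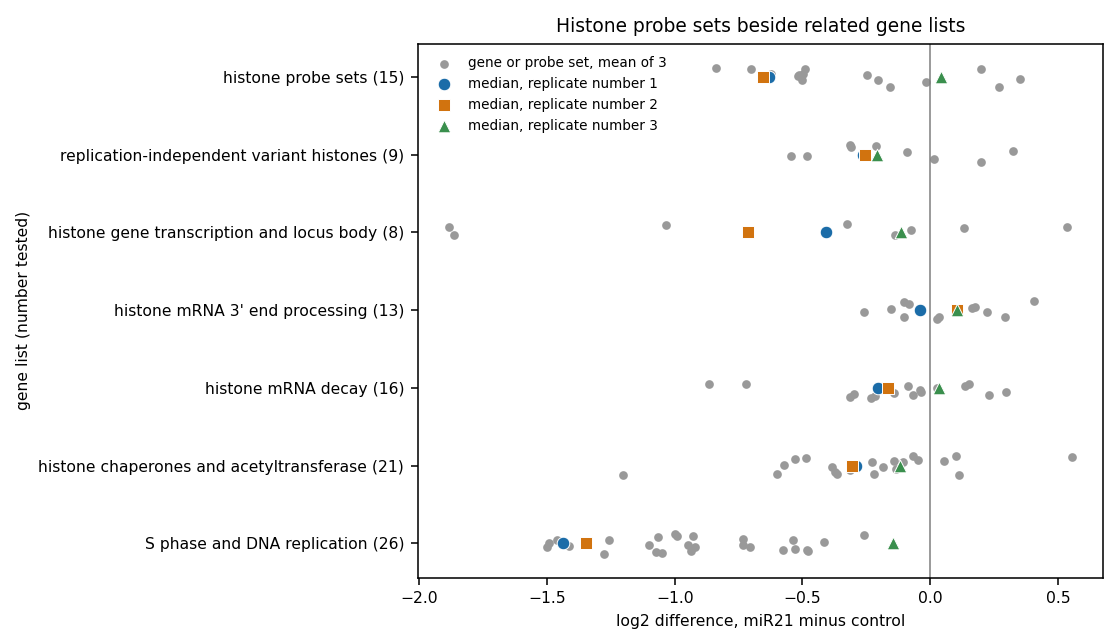
Log2 difference, miR21 minus control, of each tested histone probe set or listed gene (grey points, mean of the 3 replicate numbers, spread vertically for legibility) and the list medians within each replicate number (coloured symbols). The S phase list lies farthest to the left in numbers 1 and 2 (-1.44 and -1.35), followed by the clustered histone and transcription lists, and the number 3 medians of all lists lie between -0.21 and 0.11.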

How the data were processed

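U133 Plus 2.0 arrays read biotinylated RNA copies made from total RNA, per the labels' protocols. The deposited intensity values are MAS5 signals, per the submitters' processing notes. Which MAS5 version and settings made them is not given in the sources used here. Each array's mean after trimming 2% at both ends was 500.1, so the arrays had been scaled and the values cannot show a change common to most genes. Signals were taken as log2 with no pseudocount. Gene names came from the platform annotation. All 27307 probe sets past the filter were fitted with limma 3.58.1 in R 4.3.3 (eBayes with a variance trend, Benjamini-Hochberg at 0.05), and the steps were tested on simulated data. The sample titles give the replicate numbers. Same-numbered arrays shared their deviations from the group means (correlations 0.878, 0.643 and 0.630), so the numbers were taken to pair the arrays, and the block fit is given beside the planned fit without it. The members and gene lists were chosen with earlier results of these data known. Members were named by a rule: of each histone class up to 4 genes of highest signal past the filter, any without overlap of the groups or over 1 log2 unit in all 3 numbers, and of each list the 2 genes of smallest p where none passed. The number of arrays limits the precision. Alternatives were quantile normalization, median centring, 16 added to each signal, other filters, no variance trend, 1 probe set per gene, the block, and arrays left out.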

Additional observations from a re-analysis of the deposited data

How the results depend on the processing

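The median stayed negative under every setting tried, and the count of members called was 0 in all but the fit without number 3. The median ranged from -0.49 to -0.25 with other normalizations, filters or probe set rules, and from -0.70 to -0.19 with 1 array left out. With the replicate block limma called 5 probe sets in all, against 0 without it. The fits without both arrays of a number, added after the data were seen, called 56 probe sets without number 1, 0 without number 2 and 7243 without number 3, where 5 members were called. The cause was not tested. These fits have 1 residual degree of freedom each. Signs turned for H2AC6 with median centring (0.084), quantile normalization (0.029) and without number 1 (0.022), for H2AC14 without number 1 (-0.086), and without number 2 for H4C11 (-0.026) and H2AC17 (0.34). With 1 array left out, differences that changed sign ranged from -0.45 to 0.013 (H1-2), -0.093 to 0.52 (H2AC14), -0.42 to 0.34 (H2AC17), -0.089 to 0.65 (H2AC25), -0.62 to 0.57 (H2AC6), -0.41 to 0.041 (H2BC12L) and -0.078 to 0.47 (H4C11). The sign held for H2AC4 (-0.86 to -0.11), H2BC12 (-0.73 to -0.19), H2BC5 (-0.80 to -0.30 and -0.86 to -0.25), H2BC6 (-1.08 to -0.30), H2BC9 (-0.92 to -0.29), H2BC21 (-1.05 to -0.22) and H4C8 (-1.13 to -0.52), but each moved by over 1.5 times without at least 1 array. No H3 probe set reached the filter, so signal limits what these arrays show of H3.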
